A study of Mus musculus with 13 samples.

Results

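The DNA replication and S phase genes are 41 named genes whose products license replication origins, build and run the replication fork, supply deoxynucleotides, rebuild chromatin behind the fork or control the transcription of such genes. They were taken from the count table by symbol, through the Ensembl mouse gene IDs, and all 41 were found among its 22048 genes. All 41 also passed the low-count filter over the 13 libraries, which kept 13831 genes. On the control livers alone 39 of the 41 passed it. The other two, Orc1 and Cdc6, passed only through the other groups, where they are higher, so the main counts are also given without them.

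The libraries are mRNA of whole mouse liver, 1 library per liver, and the study's title concerns hepatic stellate cells, neurotrophin-3 and the proliferation of hepatocytes. Hepatic stellate cells lie between the sinusoids and the hepatocytes and store vitamin A. The control group held 6 livers that kept their stellate cells (replicates 1, 2 and 6 male, replicates 3, 4 and 5 female). The depleted group held 4 livers depleted of stellate cells (replicate 3 male, the others female). The hepatectomy group held 3 livers that kept their stellate cells and were collected 72 h after partial hepatectomy (resection of a share of the lobes, after which the remnant regrows; replicates 1 and 2 male, replicate 3 female). The strain, age and genotype of the mice, the means of depletion, the time since depletion and any sham operation of the controls are not given in the sources used here. The labels do not say that replicates came from separate cages or days, so p-values measure the spread between these livers only.

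DNA replication is prepared in G1, when the origin recognition complex, Cdc6 and Cdt1 load the Mcm2-7 helicase onto origins. At the start of S phase Cdc45, the GINS complex and Mcm10 turn the loaded helicase into a moving fork, and polymerase alpha-primase, polymerase epsilon and polymerase delta copy the strands with the sliding clamp PCNA. Most of these genes are targets of E2F transcription factors, whose release from the retinoblastoma family starts their transcription before S phase. Adult hepatocytes are mostly quiescent and re-enter the cell cycle after loss of liver mass. Bone marrow-derived cells in the liver, where they divide, use the same genes.

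Library totals ran from 35360991 to 51008737 counts, at which 3 counts correspond to 0.0588 to 0.0848 CPM (counts scaled to library size). Hepatocyte markers were high in every library, with a summed level of 71470 to 182000 CPM over 10 genes. Of 12 stellate cell markers 10 were called lower in depleted livers, with a median log2 fold change of -4.74. Depleted replicate 4 kept more of them than the other depleted livers: its mean log2 difference from controls over the list was -2.39, against -6.43 to -6.83 in replicates 1 to 3. In control replicate 6 the endothelial list lay 1.87 below the control mean on the log2 scale (a difference of -1.87) and the Kupffer cell list differed by -2.33. Results that rest on a library are given below with and without it.

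The promoters were read for motifs, which the choice of the genes did not use. Promoter sequences from 250 bases before to 50 after the start site were taken from RefSeq (build GRCm38.p6) for 36 of the 41 genes. Gins1, Gins2, Mcm4, Pole and Prim2 had no entry. An exact E2F word, TTTCCCGC or TTTGGCGC on either strand, occurred in the promoters of 11 of the 36 genes (30.6%), which were Cdc6, Cdt1, E2f2, Mcm3, Mcm5, Mcm6, Mcm7, Pola1, Pold1, Pole2 and Rfc3. Counted by promoter, since some genes have several, 26.2% of 42 promoters held it, against 1.56% of all 32851 promoters and 2.71% of the promoters of genes tested. In some genes the word lies wholly before the start, and of these Cdc6 and Mcm7 are not printed. The 3 windows below show the word in capitals with 20 bases on each side, for the others. They are Mcm5 (chr8:75109340-75109387, plus strand, 149 bases upstream), Mcm6 (chr1:128359725-128359835, minus strand, 2 words, 110 and 47 bases upstream) and Pola1 (chrX:93632266-93632313, minus strand, 138 bases upstream), each printed 5′ to 3′ on the gene's strand.
Mcm5: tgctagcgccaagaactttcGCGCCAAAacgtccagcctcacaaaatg
Mcm6: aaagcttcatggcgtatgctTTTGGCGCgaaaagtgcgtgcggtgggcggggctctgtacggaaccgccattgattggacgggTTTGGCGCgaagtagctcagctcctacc
Pola1: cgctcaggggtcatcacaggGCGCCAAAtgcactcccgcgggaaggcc

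Mcm10 and Rrm2 carried no E2F word in this window. They are shown because Mcm10 was the only one of the 41 called lower against controls in the edgeR fit with a sex term of all 13 livers, and Rrm2 had the smallest adjusted p among the 41 after hepatectomy. The 250 bases before their starts are given with CCAAT boxes (CCAAT on either strand, the site of the factor NF-Y) in capitals, for Mcm10 at chr2:5012792-5013041 on the minus strand and for Rrm2 at chr12:24708004-24708253 on the plus strand. Mcm10 had 2 CCAAT boxes in this stretch and Rrm2 had 1.
Mcm10: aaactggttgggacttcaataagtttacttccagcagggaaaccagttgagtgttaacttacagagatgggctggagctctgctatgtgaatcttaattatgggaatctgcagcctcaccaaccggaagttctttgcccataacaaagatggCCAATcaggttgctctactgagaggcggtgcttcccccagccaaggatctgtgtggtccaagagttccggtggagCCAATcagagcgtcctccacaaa
Rrm2: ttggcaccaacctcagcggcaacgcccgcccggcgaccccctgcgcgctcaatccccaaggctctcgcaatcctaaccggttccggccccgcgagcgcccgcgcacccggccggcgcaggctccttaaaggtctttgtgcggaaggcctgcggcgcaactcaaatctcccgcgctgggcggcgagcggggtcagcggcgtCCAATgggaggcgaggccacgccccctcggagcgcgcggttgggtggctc

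The motif content was set beside that of other lists. Of 35 further replication genes with promoters, 40.0% held an E2F word and 25.7% the CHR word, described next. In a list of 30 G2 and mitosis genes, 25 had promoters, and 0 of these held an E2F word. The CHR word (TTTGAA on either strand, found in many G2 and mitosis promoters) occurred in 18 of those 25 genes (72.0%) but in 5 of 36 replication genes (13.9%), and in 20.2% of all 27025 genes with a promoter and 14.9% of genes tested. CCAAT boxes were common in both lists, in 61.1% of the replication genes and 72.0% of the G2 and mitosis genes, against 41.1% of all genes. No CCAAT box overlapped an E2F word in the replication genes. With words 1 base shorter (TTCCCGC or TTGGCGC), tried after the first result was seen, 20 of the 36 genes matched (55.6%), against 7.79% of all genes and 13.3% of genes tested. These are matches of letters and give no evidence of binding. Without Orc1 and Cdc6, genes with an E2F word were called higher in 4 of 10 cases in depleted and 5 of 10 in hepatectomy livers, and genes without it in 5 of 24 and 12 of 24, with no test made between them, when 18.9% and 6.06% of all genes were called higher.

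**Figure D1:**
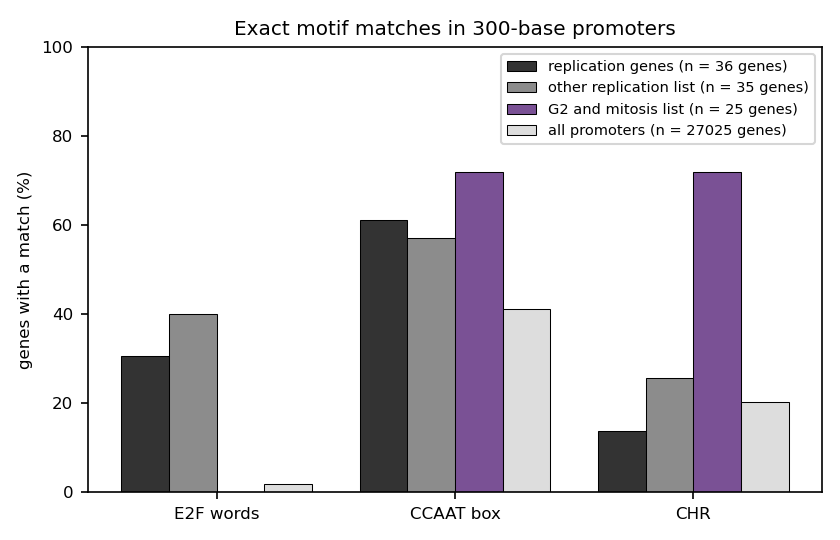
Share of genes (vertical axis, %) with at least 1 exact match of the E2F words, the CCAAT box or the CHR word in a 300-base RefSeq promoter, for the 36 replication genes, 35 other replication genes, 25 G2 and mitosis genes and all 27025 genes with a promoter. E2F words stand at 30.6% in the replication genes and 0 in the G2 and mitosis genes, whereas the CHR word stands at 13.9% and 72.0%.

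In control livers most of the 41 genes were expressed at a low level. Per kilobase of exon, mean control levels ran from 0.0124 CPM for Orc1 to 9.03 for Mcm10. The next highest were Pcna (7.35), Tk1 (5.99), Dut (3.20) and Pola2 (3.14), and the next lowest Clspn (0.0446) and Cdc6 (0.046). Among the Mcm2-7 subunits, which act as 1 hexamer, control levels per kilobase ran from 0.811 (Mcm5) through 0.837 (Mcm2), 1.19 (both Mcm3 and Mcm4) and 1.66 (Mcm6) to 2.50 (Mcm7). The mean control level of Mcm10 per kilobase thus stood above those of its partners, with large differences between livers. In control replicate 4 Mcm10 measured 17.0 CPM over 7692 bases of exon. Mcm6 measured 15.5 CPM over 4666 bases there and Mcm7 15.2 CPM over 4426, so in that liver both stood above Mcm10 per kilobase. Exons of 9 of the 41 genes (Mcm7, Cdc45, Gins2, Rfc4, Rfc5, Fen1, Lig1, Tk1 and Chaf1a) overlap a gene on the opposite strand. The strand setting of the counting is not given in the sources used here, so their values may hold reads of the neighbour.

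In the main fit the share of replication genes called higher than in controls was above that of all genes after hepatectomy. In livers depleted of stellate cells it was above by less. In depleted livers 12 of 41 were called higher and 1 lower (edgeR quasi-likelihood test, Benjamini-Hochberg adjusted p under 0.05 over all genes), with a median log2 fold change of 0.77. Over all genes tested, 18.9% were called higher and 15.0% lower in that comparison, and the median was -0.03. The share called in either direction, 31.7% of the 41, was near the 33.9% of all genes, while the share called higher was 29.3%. After hepatectomy 20 of 41 (48.8%) were called higher and 0 lower, with a median of 1.82, against 6.06% of all genes called higher, 2.36% lower and a median of -0.02. Without Orc1 and Cdc6 the counts were 10 higher and 1 lower of 39 (25.6% higher, median 0.75) and 19 higher of 39 (48.7%, median 1.79). In whole liver, a change in the number of cells with a transcript and a change in the RNA per cell cannot be told apart.

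Both counts fell when single livers were left out, given here over the 39 genes without Orc1 and Cdc6. Without hepatectomy replicate 2, 4 were called higher after hepatectomy (10.3%), Mcm5, Gins2, Rrm2 and Chaf1a, with a median of 0.545, when 2.84% of all genes were called higher. The hepatectomy count was 6, 7 and 8 without control replicates 1, 2 and 6, when 3.78%, 4.25% and 5.0% of all genes were. Without depleted replicate 4, 4 were called higher (10.3%: Clspn, Rrm2, Uhrf1 and E2f2) and 2 lower (Mcm10 and Tk1) in depleted livers, with a median of 0.441, and this share lay under the 18.4% of all genes. The depleted count was also 4 without depleted replicate 3 and 5 without control replicate 3 or 5, again no higher a share than that of all genes (13%, 17.1% and 17.2%). Without hepatectomy replicate 2, which is in neither group of that comparison but shares its model, 17 (43.6%) were called higher in depleted livers, against 19.7% of all genes. With a replicate block 6 (15.4%) were called higher in depleted livers, near the 16.0% of all genes, and 4 (10.3%) in hepatectomy livers, against 3.33%.

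In the hepatectomy and depleted groups 1 liver was the highest for most genes. Hepatectomy replicate 2 had the highest level of its group in 40 of 41 genes and exceeded every control in 40. Its mean log2 difference from controls was 2.90, against 0.95 in replicate 1 and 0.57 in replicate 3. That liver also stood apart in markers of other cells: its mean log2 difference from controls was -1.64 over 8 endothelial and -2.07 over 8 Kupffer cell and macrophage markers, against 0.13 and 1.20 in replicate 1 and -0.29 and -0.22 in replicate 3. The mean over 5 cholangiocyte markers stood 1.02 to 1.48 above controls in the hepatectomy livers, with 2 of the 5 called (Krt19 and Krt7). Epcam and Spp1 had log2 fold changes of 0.25 and 0.22, and Spp1 lay inside the control range in all of these livers. The part of these cells in the replication gene levels was not tested. Depleted replicate 4 was the highest of its group in 38 genes, with a mean difference of 1.46, and depleted replicate 2 was the lowest in 30, with 0.31. Control replicate 4 was the highest control in 17 genes and stood 0.35 above the control mean.

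**Figure D2:**
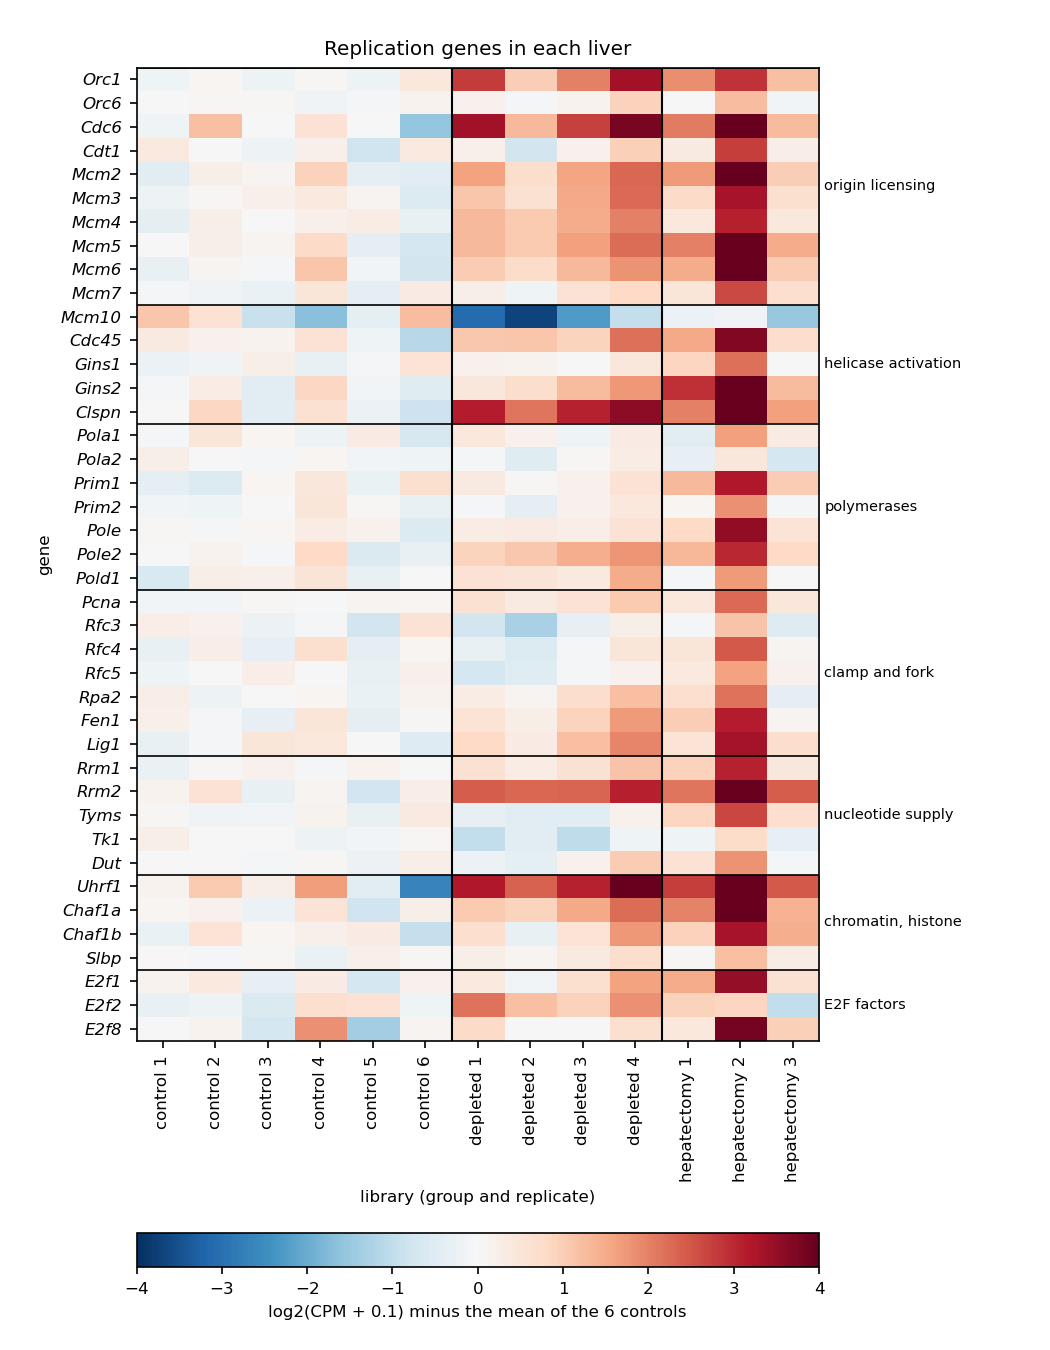
Each row is 1 of the 41 genes, grouped by role, and each column 1 of the 13 livers. Colour gives log2(CPM + 0.1) minus the mean of the 6 controls, limited to the range -4 to 4. Hepatectomy replicate 2 and depleted replicate 4 are the reddest columns of their groups, and Mcm10 is the bluest row over the depleted livers.

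The comparisons share their 6 controls, so genes called in both are listed and their overlap is no result. Orc1, Mcm2, Mcm3, Mcm5, Clspn, Pole2, Rrm2, Uhrf1 and Chaf1a were called higher in both. Cdc6, Mcm4 and E2f2 were called higher in depleted livers and not called after hepatectomy. Mcm6, Mcm7, Cdc45, Gins2, Prim1, Pole, Pcna, Rrm1, Tyms, Chaf1b and E2f1 were called higher after hepatectomy and not called in depleted livers. Mcm10 was called lower in depleted livers, and the others were called in neither comparison. A call in 1 comparison and none in the other does not show a difference between the groups, which was tested directly further on. Without Orc1 and Cdc6, every depleted liver lay above every control in 12 of 39 genes, when 16.5% of all genes did so, and every hepatectomy liver did in 19 of 39, when 7.41% of all genes did so.

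**Figure D3:**
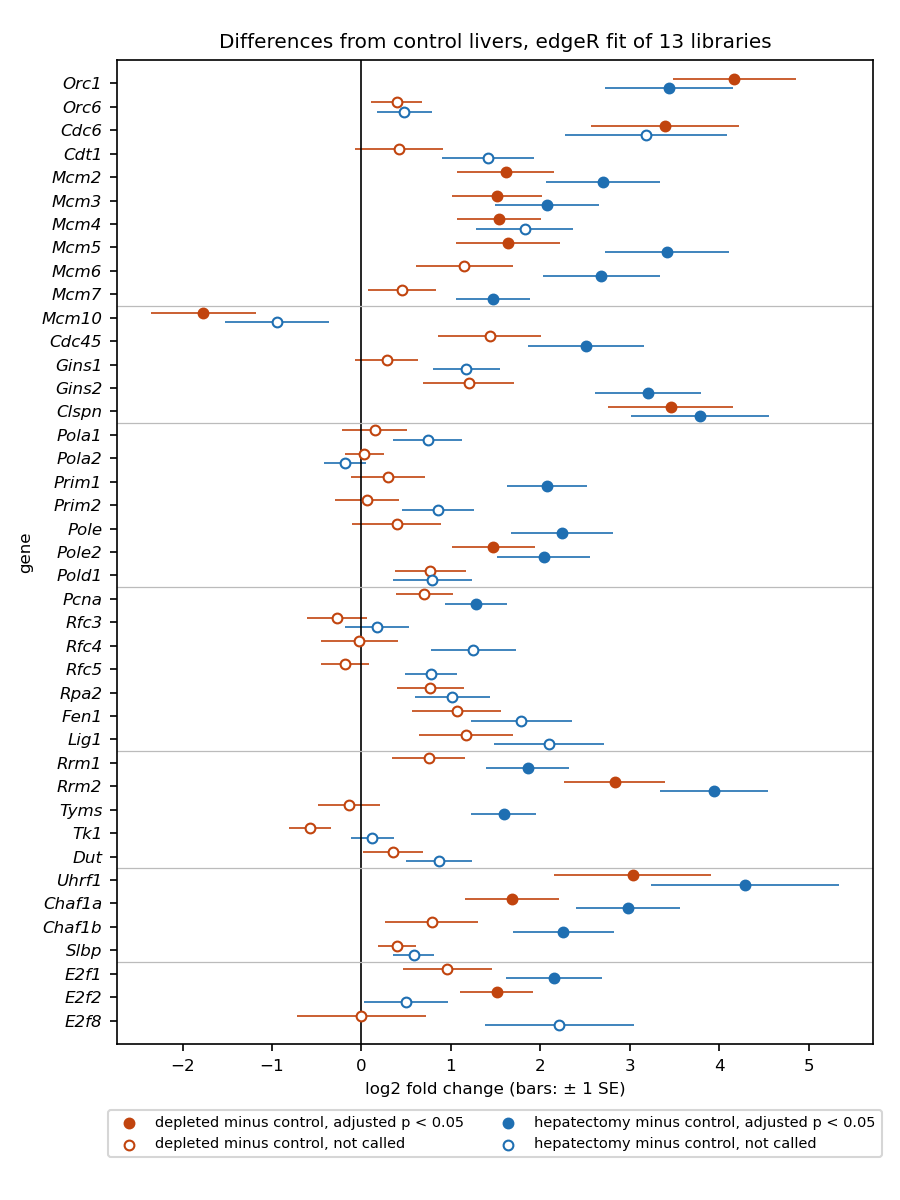
Log2 fold change against controls (horizontal axis, bars ± 1 SE, edgeR fit of 13 libraries) for each of the 41 genes, grouped by role, in depleted livers (orange) and after hepatectomy (blue). Filled points have an adjusted p under 0.05, 13 in orange and 20 in blue, and Mcm10 is the only filled point left of 0.

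Origin licensing, the largest role group with 10 genes, held the largest number of calls in depleted livers. Of its 10 genes 6 rose there (Orc1, Cdc6, Mcm2, Mcm3, Mcm4 and Mcm5; median log2 fold change of the 10, 1.52) and 6 rose after hepatectomy (Orc1, Mcm2, Mcm3, Mcm5, Mcm6 and Mcm7; median 2.38). Without Orc1 and Cdc6 the counts were 4 of 8 (median 1.33) and 5 of 8 (median 1.95), when 18.9% and 6.06% of all genes were called higher. Orc1 (chr4:108579423-108614833) encodes the largest subunit of the origin recognition complex. It had 1 to 3 counts in each control, 41, 8, 27 and 60 in depleted replicates 1 to 4 and 14, 34 and 9 in hepatectomy replicates 1 to 3. These correspond to 0.878, 0.179, 0.471 and 1.34 CPM in depleted and 0.411, 0.954 and 0.224 CPM in hepatectomy livers, with a lowest, median and highest control level of 0.0234, 0.0359 and 0.09 CPM. All depleted and hepatectomy livers lay above all controls. The ratio of summed counts, scaled to library size, was 16.9 in depleted livers (exact 95% interval 8.93 to 36.1) and 12.5 after hepatectomy (6.33 to 27.5), intervals that cover counting error only. Orc1 and Cdc6 passed the low-count filter only through the groups where they are high, so their calls are given as a description and not as support for a rise.

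Cdc6, which with Cdt1 loads the helicase, had 0 counts in control replicate 6 and at most 0.568 CPM in the others. Its summed counts were 9.33 times the control level in depleted livers (7.12 to 12.4) and 9.94 times after hepatectomy (7.49 to 13.4). The fitted log2 difference of Cdc6 was 3.39 ± 0.83 (SE) in depleted and 3.18 ± 0.91 in hepatectomy livers. The latter lay at the threshold (edgeR adjusted p = 0.0501) and was called with no sex term, with library size alone, with DESeq2, at 1 CPM in 3 libraries and without depleted replicate 2 or 4 or hepatectomy replicate 3 (lowest adjusted p 0.00248). Cdt1 (chr8:122568015-122573128), the partner of Cdc6, had control levels of 1.82, 3.52 and 4.32 CPM (lowest, median, highest). It measured 3.77, 1.93, 3.70 and 6.37 CPM in depleted replicates 1 to 4 and 4.23, 22.8 and 3.92 CPM in hepatectomy replicates 1 to 3. Apart from hepatectomy replicate 2 and depleted replicate 4 these lay inside the control range. Neither difference passed the test (edgeR adjusted p = 0.546 and 0.115). Orc6 was uncalled in both, at 3.96 to 4.83 CPM in controls, 4.12 to 8.40 in depleted and 4.09 to 10.4 in hepatectomy livers.

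The 6 helicase subunits moved by different amounts. Mcm2 (chr6:88883475-88898780) had control levels of 1.92, 2.42 and 5.06 CPM. It reached 8.20, 4.37, 8.19 and 13.3 CPM in depleted replicates 1 to 4 and 8.85, 43.3 and 5.36 CPM in hepatectomy replicates 1 to 3. Only depleted replicate 2 fell inside the control range. The fitted log2 fold change was 1.61 ± 0.54 (SE) in depleted livers (edgeR adjusted p = 0.0364) and 2.70 ± 0.64 after hepatectomy (adjusted p = 0.0229). Mcm5 (chr8:75109528-75128439) had control levels of 1.56, 2.77 and 4.49 CPM, 6.53, 5.49, 8.40 and 12.8 CPM in depleted livers and 10.8, 80.2 and 7.48 CPM after hepatectomy. All livers of both groups exceeded all controls. The log2 fold change of Mcm5 was 1.63 ± 0.58 (SE) in depleted livers (edgeR adjusted p = 0.0474) and 3.42 ± 0.69 after hepatectomy (adjusted p = 0.0123).

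These calls differed in how far they rested on single livers. In depleted livers the call of Mcm2 was lost when any of 8 single libraries was left out (adjusted p 0.0556 to 0.0993; control replicates 1, 2, 3, 5 and 6, depleted replicates 1, 3 and 4), and that of Mcm5 when any of 9 was (0.0549 to 0.122; the same and depleted replicate 2). After hepatectomy the call of Mcm2 was lost without any of 4 libraries (0.0578 to 0.109; control replicates 1, 2 and 6, hepatectomy replicate 2), whereas Mcm5 kept its call without any 1 library and had a log2 fold change of 1.73 without hepatectomy replicate 2 (adjusted p = 0.0292). The depleted calls of Mcm3 and Mcm4 were lost without 7 and 2 libraries, and the hepatectomy calls of Mcm3, Mcm6 and Mcm7 without 9, 4 and 9. Log2 fold changes of the remaining subunits in depleted livers were 1.51 (Mcm3), 1.54 (Mcm4), 1.15 (Mcm6, uncalled) and 0.46 (Mcm7, uncalled). After hepatectomy they were 2.07 (Mcm3), 1.82 (Mcm4, uncalled, adjusted p = 0.0586), 2.68 (Mcm6) and 1.47 (Mcm7).

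Helicase activation held the gene that fell. Mcm10 (chr2:4989714-5012791), a scaffold that helps the helicase start to move, had control levels of 118, 82.1 and 127 CPM in male replicates 1, 2 and 6 and 29.5, 17.0 and 42.8 CPM in female replicates 3, 4 and 5. Depleted replicates 1 to 4 measured 6.34, 4.14, 11.4 and 28.3 CPM, and hepatectomy replicates 1 to 3 measured 46.8, 49.3 and 18.9 CPM. In depleted livers 3 of 4 lay below every control, and replicate 4 lay within the female control range. Adjusted for sex, Mcm10 fell by 1.77 on the log2 scale (SE 0.58, edgeR adjusted p = 0.034) in depleted livers. The change after hepatectomy was -0.94 ± 0.58 (SE, adjusted p = 0.347). Without depleted replicate 4 the depleted change was -2.80 (adjusted p = 8.52e-05). The call was lost without control replicate 5 or depleted replicates 1, 2 or 3 (-1.66 to -1.29, adjusted p 0.0743 to 0.15), under scaling by library size alone, with only the depleted and control livers fitted and with the replicate block. It was also lost in females only, where the log2 change of Mcm10 was -1.21 (adjusted p = 0.285).

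The other activation genes rose or had positive values. Gins2 (chr8:120578633-120589304), a subunit of the GINS complex, had control levels of 0.48, 0.662 and 1.35 CPM, 1.01, 1.23, 1.83 and 2.58 CPM in depleted replicates 1 to 4 and 6.08, 16.0 and 1.87 CPM in hepatectomy replicates 1 to 3. The hepatectomy livers lay above every control, while depleted replicates 1 and 2 overlapped them. In the edgeR fit Gins2 had a log2 fold change of 3.20 ± 0.59 (SE) after hepatectomy (adjusted p = 0.00739), and the call held without hepatectomy replicate 2 (2.32, adjusted p = 0.0307). The depleted value, 1.20 ± 0.51, was not called (adjusted p = 0.089). Clspn (chr4:126556935-126593903) encodes claspin, a fork protein of the replication checkpoint. It had control levels of 0.12, 0.264 and 0.593 CPM, 3.30, 1.61, 3.16 and 4.57 CPM in depleted livers and 1.47, 13.7 and 1.12 CPM after hepatectomy, with no overlap between either group and controls. Clspn had a log2 fold change of 3.46 ± 0.70 (SE) in depleted livers (edgeR adjusted p = 0.00218) and 3.78 ± 0.77 after hepatectomy (adjusted p = 0.0123). The former was called in each alternative, and the latter became 1.99 (adjusted p = 0.0622) without hepatectomy replicate 2. Cdc45 rose after hepatectomy (2.51, adjusted p = 0.0324), a call lost without any of 7 libraries, and Gins1 was uncalled (0.28 and 1.17).

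Among 7 polymerase and primase genes 1 rose in depleted livers (median 0.30) and 3 rose after hepatectomy (median 0.86). The shares were 14.3%, below the 18.9% of all genes called higher, and 42.9%, against 6.06%. Pole2 (chr12:69201779-69228190), the second subunit of polymerase epsilon, had control levels of 0.304, 0.491 and 0.944 CPM, 1.03, 1.16, 1.55 and 1.96 CPM in depleted livers and 1.41, 4.80 and 0.948 CPM after hepatectomy. The groups did not overlap with controls, though hepatectomy replicate 3 stood just above the highest control. Pole2 had a log2 fold change of 1.47 ± 0.46 (SE) in depleted livers (edgeR adjusted p = 0.0264) and 2.04 ± 0.52 after hepatectomy (adjusted p = 0.0303), calls lost without any of 4 libraries (control replicates 3 and 5, depleted replicates 3 and 4; adjusted p up to 0.0799) and without any of 6 (control replicates 1, 2, 3, 5 and 6, hepatectomy replicate 2; up to 0.199). Prim1 (chr10:128015168-128030037), the catalytic primase that lays RNA primers, had control levels of 1.98, 2.72 and 4.59 CPM, 3.73, 3.0, 3.30 and 4.43 CPM in depleted livers and 7.26, 27.3 and 6.01 CPM after hepatectomy. All depleted livers lay inside the control range and all hepatectomy livers above it. Its hepatectomy log2 fold change was 2.07 ± 0.45 (SE, edgeR adjusted p = 0.0151), or 1.13 (adjusted p = 0.0801) without hepatectomy replicate 2, and its depleted value was 0.30 ± 0.41 (adjusted p = 0.617).

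Pole, the catalytic subunit of polymerase epsilon, rose after hepatectomy (2.24, adjusted p = 0.031), and lost the call without any of 5 libraries. Subunits of polymerase alpha-primase other than Prim1 were not called in either comparison. Their log2 fold changes were 0.15 and 0.74 for Pola1, 0.03 and -0.18 for Pola2 and 0.06 and 0.86 for Prim2, in depleted and hepatectomy livers in turn. Pold1, the catalytic subunit of polymerase delta, stood at 0.77 and 0.79, also uncalled.

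Of 7 clamp and fork genes 0 were called in depleted livers, when 18.9% of all genes were called higher, and 1 after hepatectomy (14.3%, against 6.06%). Pcna (chr2:132249162-132253314), the sliding clamp and a common marker of proliferation, had narrow control levels of 16.2, 18.0 and 19.0 CPM. It measured 26.6, 22.8, 26.1 and 36.3 CPM in depleted livers and 23.4, 85.9 and 24.2 CPM after hepatectomy, and every one of these exceeded every control. Pcna had a log2 fold change of 0.70 ± 0.32 (SE) in depleted livers (edgeR adjusted p = 0.11) and 1.28 ± 0.35 after hepatectomy (adjusted p = 0.042). The hepatectomy call was lost without any of 10 libraries (adjusted p 0.0512 to 0.176; control replicates 1 to 6, depleted replicates 1, 2 and 3 and hepatectomy replicate 2). Without hepatectomy replicate 2, Pcna, Rpa2, Fen1 and Lig1 were called higher in depleted livers, when 19.7% of all genes were. The same genes were called with only the depleted and control livers fitted (19.5% of all genes). Lig1 (chr7:13277283-13311433), the ligase that joins Okazaki fragments, had control levels of 2.94, 4.16 and 6.02 CPM, 7.47, 5.42, 10.0 and 16.8 CPM in depleted livers and 6.23, 44.0 and 6.96 CPM after hepatectomy. Hepatectomy livers lay above every control, and depleted replicate 2 did not. Neither difference was called in the main fit (log2 1.17 ± 0.53, edgeR adjusted p = 0.109, and 2.09 ± 0.61, adjusted p = 0.0551). The hepatectomy difference of Lig1 was called with no sex term, with DESeq2 and without hepatectomy replicate 1 or 3.

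Fen1, the flap endonuclease of Okazaki fragment processing, stood at 1.07 and 1.79. Rpa2, a subunit of the single-strand binding protein, stood at 0.77 and 1.02. Both were uncalled in both comparisons in the main fit, and their depleted calls in other fits are given above. After hepatectomy Fen1 was called with no sex term, with DESeq2 and without hepatectomy replicate 3, and Rpa2 without hepatectomy replicate 3. The clamp loader genes had values near 0 in depleted livers (Rfc3 -0.28, Rfc4 -0.02, Rfc5 -0.19) and of 0.17, 1.25 and 0.78 after hepatectomy, also uncalled.

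Of 5 nucleotide supply genes 1 rose in depleted livers (1 in 5, near the 18.9% of all genes) and 3 rose after hepatectomy (60.0%, against 6.06%). Rrm2 (chr12:24708241-24714146) encodes the small subunit of ribonucleotide reductase that limits deoxynucleotide synthesis in S phase, and its promoter is printed above. It had control levels of 1.75, 3.34 and 4.57 CPM, 16.9, 15.4, 15.9 and 26.9 CPM in depleted replicates 1 to 4 and 13.7, 143 and 16.9 CPM in hepatectomy replicates 1 to 3. Every depleted and hepatectomy liver lay well above every control, and leaving out the highest of each group left 15.4 to 16.9 and 13.7 to 16.9 CPM. Its log2 fold change was 2.83 ± 0.57 (SE) in depleted livers (edgeR adjusted p = 0.00226) and 3.94 ± 0.60 after hepatectomy (adjusted p = 0.00378). Without depleted replicate 4 the first was 2.55 (adjusted p = 0.00555), and without hepatectomy replicate 2 the second was 2.29 (adjusted p = 0.002). Rrm1, the large subunit, rose after hepatectomy (1.86, edgeR adjusted p = 0.0286), a call lost without any of 4 libraries. In depleted livers it was not called in the main fit (0.75). It was called there without hepatectomy replicate 2 and with only the depleted and control livers fitted.

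Tyms (chr5:30058202-30073617), thymidylate synthase, had control levels of 5.47, 6.57 and 8.55 CPM, 5.35, 4.99, 5.01 and 7.64 CPM in depleted livers and 12.1, 42.9 and 10.7 CPM after hepatectomy. The depleted livers lay in or below the control range and the hepatectomy livers above it. Its log2 fold change was -0.14 ± 0.34 (SE) in depleted livers (edgeR adjusted p = 0.795) and 1.59 ± 0.36 after hepatectomy (adjusted p = 0.0189), the latter lost without control replicates 1 or 2 or hepatectomy replicate 2 (adjusted p 0.051 to 0.0862). Tk1, the thymidine salvage kinase, was among the more abundant of the genes in controls (26.9 to 36.2 CPM) and measured 15.6, 22.9, 15.2 and 27.4 CPM in depleted livers. It missed the threshold there (-0.58, edgeR adjusted p = 0.0745). It passed without depleted replicate 4 (-0.75, adjusted p = 0.0228), without hepatectomy replicates 2 or 3, with no sex term, with only the depleted and control livers fitted, with DESeq2 and with limma-voom (lowest adjusted p 0.0203). Dut, which removes dUTP, was uncalled (0.35 and 0.87).

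Of 4 chromatin and histone genes 2 rose in depleted livers (18.9% of all genes did) and 3 after hepatectomy (6.06% of all genes). Uhrf1 (chr17:56303321-56323486), which carries DNA methylation through replication with Dnmt1, had 0 counts in control replicate 6, a control median of 0.613 and a highest control of 1.89 CPM. It measured 5.68, 3.14, 5.24 and 11.8 CPM in depleted livers and 4.20, 39.7 and 3.37 CPM after hepatectomy, all above every control. Uhrf1 had a log2 fold change of 3.03 ± 0.88 (SE) in depleted livers (edgeR adjusted p = 0.0188) and 4.29 ± 1.05 after hepatectomy (adjusted p = 0.0262). The depleted call was lost without depleted replicate 3 (adjusted p = 0.0578), and the hepatectomy call without control replicates 1 or 2 or hepatectomy replicate 2 (adjusted p 0.057 to 0.159). Chaf1a (chr17:56040416-56068026), the large subunit of the chromatin assembly factor that deposits histones on new DNA, had control levels of 0.749, 1.51 and 2.07 CPM, 2.98, 2.64, 4.09 and 6.86 CPM in depleted livers and 5.76, 30.3 and 3.74 CPM after hepatectomy, with no overlap with controls. Its log2 fold change was 1.68 ± 0.52 (SE) in depleted livers (edgeR adjusted p = 0.0251) and 2.98 ± 0.58 after hepatectomy (adjusted p = 0.00995). The hepatectomy call held without any 1 liver, and the depleted one was lost without control replicates 3 or 5 or depleted replicate 4 (adjusted p 0.0516 to 0.0755). Its partner Chaf1b rose after hepatectomy (2.26, adjusted p = 0.0275), a call lost without any of 3 libraries, and was uncalled in depleted livers (0.78). Slbp, which binds the stem-loop of histone mRNAs, was uncalled (0.40 and 0.58).

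The 3 E2F genes behaved differently from each other. E2f1 (chr2:154559407-154569892), an activator of S phase genes, had control levels of 1.66, 3.09 and 3.61 CPM, 3.68, 2.55, 4.40 and 8.60 CPM in depleted livers and 7.94, 32.5 and 4.24 CPM after hepatectomy. Hepatectomy livers exceeded every control, and depleted replicate 2 did not. E2f1 had a log2 fold change of 0.96 ± 0.50 (SE) in depleted livers (edgeR adjusted p = 0.16) and 2.15 ± 0.54 after hepatectomy (adjusted p = 0.0294), a call lost without any of 6 libraries (adjusted p 0.0508 to 0.193; control replicates 1, 2, 3, 5 and 6 and hepatectomy replicate 2). E2f2 (chr4:136172394-136196057), another activator, had control levels of 1.82, 2.43 and 4.40 CPM, 12.7, 6.43, 5.26 and 9.95 CPM in depleted livers and 5.26, 5.05 and 1.35 CPM after hepatectomy. Depleted livers lay above every control, whereas hepatectomy replicate 3 lay below them and replicates 1 and 2 just above. Its log2 fold change was 1.51 ± 0.41 (SE) in depleted livers (edgeR adjusted p = 0.0121), called in each alternative, and 0.50 ± 0.47 after hepatectomy (adjusted p = 0.555). E2f8, an atypical E2F that represses S phase genes late in the cycle, was uncalled and varied within groups, with 12.4 CPM in control replicate 4 against 1.24 to 3.78 in the other controls and 49.0 CPM in hepatectomy replicate 2 against 4.53 and 6.63.

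**Figure D4:**
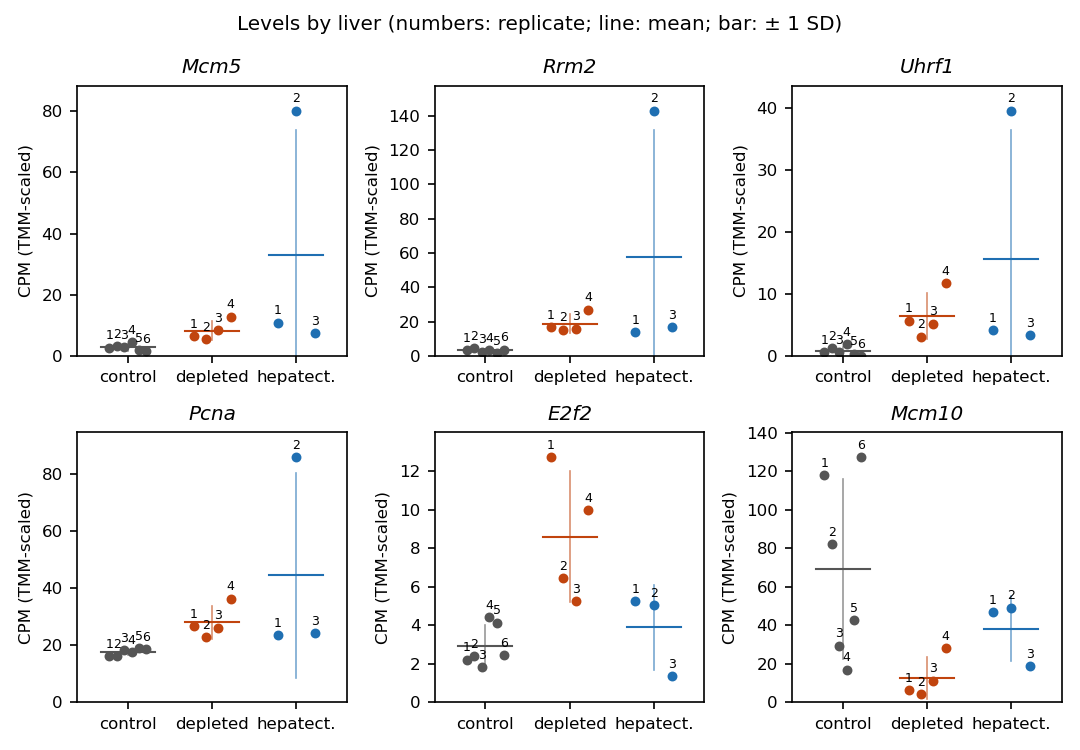
TMM-scaled CPM (vertical axis, linear, from 0) of 6 genes in each liver, with replicate numbers, group means (lines) and ± 1 SD (bars, cut at 0), for 6 controls, 4 depleted and 3 hepatectomy livers. Rrm2, Uhrf1, Mcm5 and Pcna are above every control in all depleted and hepatectomy livers, with hepatectomy replicate 2 far above the rest. E2f2 is highest in depleted livers and Mcm10 highest in male controls.

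Red cell precursors also transcribe E2f2, and their markers were therefore read beside it. Over all 10 erythroid markers 3 were called higher in depleted livers, and the summed level was 71.0 to 576.4 CPM there, 126.9 to 382.3 in controls and 102.6 to 193.8 after hepatectomy. The mean log2 difference of the list from controls was 2.35 and 2.93 in depleted replicates 1 and 4, which had the higher E2f2 levels, and 0.07 and 0.23 in replicates 2 and 3. Gata1 was at 0 counts in all hepatectomy livers. The part of such cells in the E2f2 result was not tested.

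Markers of blood cells were higher in depleted livers beside all of the gene groups above. Of 8 myeloid leukocyte markers 8 were called higher there (summed level 550.7 to 968.5 CPM, against 19.3 to 136.1 in controls), as were 8 of 8 lymphocyte markers (44.7 to 100 against 4.07 to 7.39 CPM). For immature myeloid cells 5 of 6 tested markers were called higher (28.0 to 73.6 against 3.07 to 12.4 CPM over 8 genes), with Ms4a3 at 0 counts in every control. For Kupffer cells and macrophages 5 of 8 were (1158 to 2267 against 75.0 to 608.1 CPM), led by Csf1r and Marco. In the same list the resident Kupffer cell marker Clec4f measured 0.236, 2.17, 3.44 and 69.5 CPM in depleted replicates 1 to 4. Its control level was 111 ± 49.1 CPM (SD, n = 6). The log2 value of -3.0 was not called (edgeR adjusted p = 0.0872), nor was that of Vsig4 (-0.88). Timd4 and Cd5l of the same list went the other way, at 2.13 (called, edgeR adjusted p = 0.0218) and 1.49 (uncalled, adjusted p = 0.0714). After hepatectomy 0 of 8 lymphocyte markers (4.49 to 5.67 CPM), 2 of 8 myeloid leukocyte markers (58.5 to 208.9 CPM) and 2 of 6 immature myeloid markers (15.8 to 75.0 CPM) were called higher. Their part in the levels of replication genes was not tested.

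Depleted and hepatectomy livers were compared with each other in the fit of all 13 libraries, in which the controls add to the estimates of spread and sex. Of the 41 genes 0 were called higher and 3 lower in depleted than in hepatectomy livers, with a median log2 difference of -0.89, when 13.3% of all genes were called higher, 10.1% lower and the median was -0.05. The 3 were Tyms (-1.73 ± 0.43 SE, edgeR adjusted p = 0.0127), Prim1 (-1.77 ± 0.53, adjusted p = 0.0289) and Gins2 (-2.0 ± 0.68, adjusted p = 0.0491). For Tyms and Prim1 every hepatectomy liver exceeded every depleted liver, as also for Rfc5 (uncalled), so 3 of 41 genes were apart in this direction, when 15.9% of all genes were. For Gins2, hepatectomy replicate 3 (1.87 CPM) lay below depleted replicate 4 (2.58 CPM). Tyms lost its call without depleted replicate 3 (adjusted p = 0.081), Prim1 without any of 4 libraries (depleted replicates 1, 2 and 3, hepatectomy replicate 2; 0.0531 to 0.137) and Gins2 without any of 11 (0.0568 to 0.198; all controls, depleted replicates 1, 2 and 3 and hepatectomy replicates 1 and 2). With only the depleted and hepatectomy livers fitted, 0 genes were called lower and the median was -0.56. Without hepatectomy replicate 2 the median over the 41 was 0.03; its sign rested on that liver.

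Genes of the wider pathway, not in the list of 41, had smaller median changes. Of 46 further replication genes 10 were called higher and 1 lower in depleted livers (median 0.30) and 14 higher and 2 lower after hepatectomy (median 0.69). The shares called higher were 21.7% in depleted livers, near the 18.9% of all genes, and 30.4% after hepatectomy, against 6.06%. The hepatectomy count fell to 2 without hepatectomy replicate 2 (median 0.216), to 6 without control replicate 1 and with the replicate block, and to 8 without control replicate 2. In depleted livers Asf1b, a histone chaperone, rose from 0.53 ± 0.34 CPM (SD, n = 6) to 3.49 ± 1.57 (SD, n = 4), a log2 fold change of 2.74 (edgeR adjusted p = 0.003). Rnaseh2b, a subunit of the nuclease that removes ribonucleotides from DNA, rose by 0.88 (adjusted p = 0.0026). After hepatectomy Pole4, a small subunit of polymerase epsilon, rose by 1.12 (adjusted p = 0.00354), and Dbf4, the partner of the origin-firing kinase Cdc7, rose by 1.99 (adjusted p = 0.00818). Orc3, of the origin recognition complex, fell by 0.52 (adjusted p = 0.013), from 22.2 ± 1.66 to 15.3 ± 1.68 CPM.

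Genes of G2 and mitosis had larger fold changes than most S phase genes after hepatectomy. All 30 of that list were called higher there (median 4.16, range 1.83 to 5.02), when 6.06% of all genes were. Every hepatectomy liver lay above every control in all 30, when 7.41% of all genes did so. In depleted livers 14 of 30 were called higher (median 1.97), a count that was 28 without control replicate 4 (median 3.25), 9 without depleted replicate 4, 6 without depleted replicate 3, 24 with the replicate block and 4 in females only. Birc5, survivin of the chromosomal passenger complex, measured 25.4, 57.0 and 8.03 CPM after hepatectomy, 4.97, 3.14, 5.27 and 11.1 CPM in depleted livers and 1.19 ± 0.82 CPM (SD, n = 6) in controls. Aurkb, its kinase partner, had log2 fold changes of 2.80 (edgeR adjusted p = 0.0059) in depleted livers and 4.50 (adjusted p = 0.00567) after hepatectomy. Cdk1, the mitotic kinase, rose by 4.30 (adjusted p = 0.00671) after hepatectomy and was uncalled in depleted livers (1.65, adjusted p = 0.0703), where Kif23, a motor of cytokinesis, rose by 2.30 (adjusted p = 0.00282).

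Set side by side in each liver, hepatectomy replicate 2 stood above the depleted livers on both lists and replicate 1 on the mitotic list alone. Replicate 3 lay inside the range of the depleted livers on both. In hepatectomy replicates 1 and 3 the mean log2 difference from controls was 0.95 and 0.57 over the 41 replication genes and 4.21 and 2.63 over the G2 and mitosis genes, whereas in replicate 2 it was 2.90 and 5.21. In depleted replicates 1 to 4 the replication genes stood at 0.72, 0.31, 0.78 and 1.46 and the G2 and mitosis genes at 2.38, 1.59, 2.27 and 3.10. Control replicate 4 stood at 0.35 and 2.11 and control replicate 6 at -0.20 and -1.36, so the controls themselves spread over several log2 units in the mitotic list. Without hepatectomy replicate 2, 10 of 30 G2 and mitosis genes were called higher after hepatectomy (median 3.40), against 4 of 41 replication genes (median 0.565). In that fit 2.84% of all genes were called higher. Without control replicate 1, 13 of the 30 were, against 3.78% of all genes. No test was made of one list against the other.

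**Figure D5:**
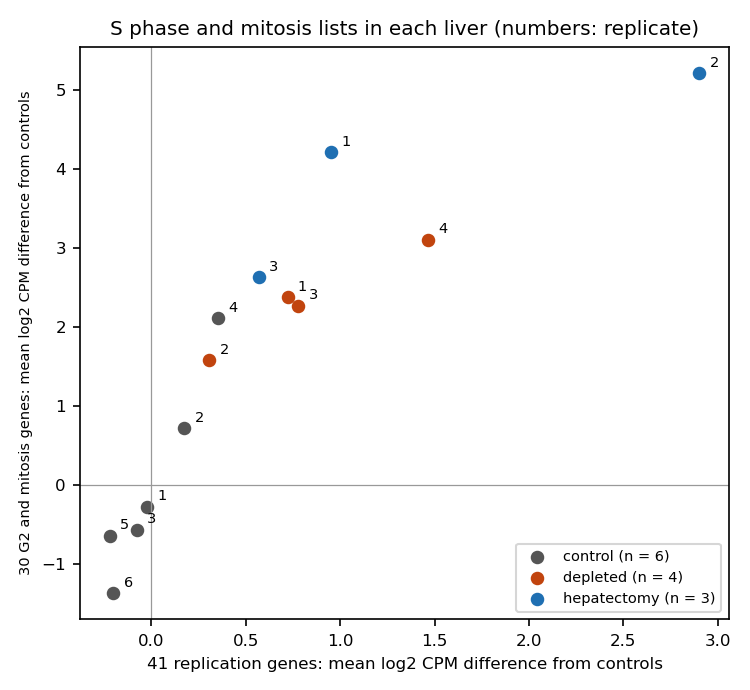
Each point is 1 liver, with its replicate number. The horizontal axis is the mean log2 CPM difference from the control mean over 41 replication genes and the vertical axis the same over 30 G2 and mitosis genes. Hepatectomy replicates 1 and 3 lie at 0.95 and 0.57 on the horizontal axis, beside the depleted livers, and at 4.21 and 2.63 on the vertical axis, and hepatectomy replicate 2 lies apart at 2.90 and 5.21.

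Male and female controls were compared to see whether sex moved the levels. Of the 39 genes tested in the 6 controls, 0 were called between males and females (edgeR quasi-likelihood test, when 0.738% of all genes were called), and DESeq2 called 1, Mcm10. The edgeR log2 difference of Mcm10, male minus female, was 1.87 (adjusted p = 0.0667), with every male control above every female control. The depleted group is mostly female and the hepatectomy group mostly male, so sex was kept in the model. In females alone 6 of the 39 genes without Orc1 and Cdc6 (15.4%) were called higher in depleted livers, near the 13.6% of all genes. In males alone 4 of the 39 (10.3%) were called higher and 1 lower (Mcm10) after hepatectomy, when 3.43% of all genes were called higher.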

How the data were processed

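The authors deposited 1 table of raw read counts per gene. STAR 2.7.1a, SAMtools 1.15.1, featureCounts 1.6.4 and the build mm10 are named in the submitters' processing notes, and per the labels' protocols RNA was extracted with TRIzol and 500 ng entered a stranded mRNA kit. Roles of the tools, strand setting and handling of multi-mapped reads are not given in the sources used here. IDs were matched to symbols in GENCODE release M21 (21741 of 22048 matched, 307 not), whose GRCm38 coordinates are printed.

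Counts were tested with edgeR 4.0.16 in R 4.3.3 (TMM scaling, filterByExpr, glmQLFit with robust estimation, glmQLFTest), with group and sex over all 13 libraries, two-sided, adjusted by Benjamini-Hochberg over 13831 genes at 0.05. The sex comparison used the 6 controls (13005 genes). CPM are TMM-scaled, log2 CPM per liver used a prior count of 2, and a list's value in a liver is the mean over its genes of the log2 CPM difference from the control mean. The fit was tested on simulated data. DESeq2 1.42.0 and limma-voom (limma 3.58.1) were alternatives. Within groups no 2 libraries agreed within sampling noise (lowest median chi-square per gene 4.60).

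The 41 genes and the lists were chosen with earlier results of these data known. Values for single libraries were given in full for genes named by rule: in each role the gene with the smallest adjusted p in each comparison with control, those called lower or called between depleted and hepatectomy livers, and E2f1, Cdt1, Mcm2, Pcna, Rrm2 and Uhrf1. From each wider list the 3 genes with the smallest adjusted p per comparison were named, except 1 that is not reported here. Tk1, Cdc6 and E2f8 were detailed after their values were seen. A planned search for protein motifs was not run, and proteins are not analysed here. Batches are not named in the labels and cannot be told apart from the groups if they ran with them.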

Additional observations from a re-analysis of the deposited data

Results flagged for a closer look

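Each of the 41 genes, and their mean log2 CPM, was checked in the control and the depleted group for a liver standing far from the rest, by the gap to its nearest neighbour as a share of the group's range (84 checks in all, of which 7 passed the 95% limit and about 4.2 would by chance; the hepatectomy group of 3 was too small). Depleted replicate 4, the liver that kept more stellate cell marker RNA, was the high one for 5 genes. The shares were 0.895 for Cdc45 (4.70 against 2.15 CPM in the next liver), 0.867 for Rrm2 (26.9 against 16.9 CPM), 0.864 for Tyms (7.64 against 5.35 CPM), 0.86 for Pold1 (6.99 against 3.73 CPM) and 0.843 for Pole (3.85 against 3.23 CPM). Control replicate 4, the control with the highest mean over G2 and mitosis genes, was the high one for E2f8, with a share of 0.772 (12.4 against 3.78 CPM), and for Mcm6, with 0.696 (15.5 against 7.64 CPM). The part of stellate cells or of dividing cells in these values was not tested.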

How the results depend on the processing

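In depleted livers the calls of Cdc6, Clspn, Rrm2 and E2f2 held in every alternative run, that of Orc1 held in each that tested it (it was filtered out with only 2 groups, at 1 CPM in 3 libraries and in females; Orc1 and Cdc6 entered the tests only through the groups where they are high), and after hepatectomy those of Gins2 and Chaf1a did. In depleted livers 7 genes were called higher in females only (13.6% of all genes were), and genes called lower numbered 2 without a sex term, with DESeq2 and with limma-voom, and 0 with library size alone, the replicate block and females only, when 15.3%, 17.0% and 16.4% and then 10.6%, 12.1% and 6.4% of all genes were called lower. After hepatectomy 9 were called higher when only the 2 groups were fitted (5.21% of all genes) and with limma-voom (median 1.40, 5.89%), and 4 higher and 1 lower in males only (median 2.44, 3.43% and 1.24%). With the replicate block 5 were called higher after hepatectomy (3.33% of all genes). The block was not used because the labels do not say that a number is shared. After sex was removed, same-numbered livers correlated at -0.191 to 0.416 over the comparisons, and differently numbered livers at -0.484 to 0.36. Means were 0.117 against -0.018 for depleted and control livers and -0.052 against 0.012 for hepatectomy and control livers. For depleted and hepatectomy livers they were 0.158 against -0.052.

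Between depleted and hepatectomy livers the genes called lower were 8 without a sex term, 0 with only these 2 groups (median -0.56), 1 with library size alone (median -0.585), 6 with DESeq2 and 1 with limma-voom (median -0.54), when 12.8%, 5.21%, 4.41%, 12.8% and 11.0% of all genes were called lower. DESeq2 called 1 gene between male and female controls. With library size alone 12 genes had hepatectomy livers above every control (4.22% of all genes). That scaling moved the median of all genes to -0.24 after hepatectomy, 0.08 in depleted livers and 0.27 between those groups, and the share of calls that were higher to 28.6% from 72.0%, 66.2% from 55.7% and 83.6% from 56.8%.

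Leaving out 1 library at a time gave 6 to 19 genes called higher (lowest without depleted replicate 3 or 4) and 0 to 2 lower in depleted livers, with a median of 0.45 to 0.93. After hepatectomy 4 (without hepatectomy replicate 2) to 26 (without hepatectomy replicate 3) were called higher, with a median of 0.565 to 2.43. In those fits in turn 2.84% and 5.28% of all genes were. Without control replicates 1, 2 and 6 the count was 7, 8 and 9, when 3.78%, 4.25% and 5.0% of all genes were. Without Orc1 and Cdc6 the counts were 4 to 17 of 39 in depleted livers and 4 to 24 of 39 after hepatectomy. Between depleted and hepatectomy livers 0 to 1 were called higher (1 without hepatectomy replicate 2, when 10.2% of all genes were). From 0 (without depleted replicate 3) to 10 (without hepatectomy replicate 3) were called lower, when 4.79% and 7.3% of all genes were. The median was -1.455 to 0.033, and 0 to 1 were called between the sexes.

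Some genes uncalled in the main fit were called in others. In depleted livers Mcm6, Cdc45, Pcna, Rpa2, Fen1, Lig1 and Rrm1 were called with only the depleted and control livers fitted, and also without hepatectomy replicate 2. After hepatectomy Cdt1 was called with DESeq2. Mcm4, Gins1, Fen1 and Lig1 were called there with DESeq2 and with no sex term. Sign changes were confined to genes uncalled in the main fit. In depleted livers, leaving out 1 library gave ranges of -0.11 to 0.14 for Pola2, -0.085 to 0.22 for Prim2, -0.30 to 0.29 for Rfc4, -0.32 to 0.084 for Tyms, -0.076 to 0.53 for Dut and -0.25 to 1.18 for E2f8. Pola2 was -0.025 without a sex term, -0.006 with only 2 groups and -0.011 with the replicate block and in females, where Prim2 was -0.17, and Rfc4 was 0.089 with library size alone. E2f8 was 0.011 without a sex term, 0.068 with library size alone, 0.009 with relative log expression scaling and DESeq2, 0.38 with limma-voom, 0.004 with a filter of 1 CPM in 3 libraries and 0.18 with the replicate block. After hepatectomy the ranges were -0.045 to 0.78 for Orc6, -0.087 to 1.08 for Pola1, -0.52 to 0.074 for Pola2, -0.074 to 1.25 for Pold1, -0.30 to 0.40 for Rfc3 and -0.25 to 0.37 for Tk1. There Pola2 was 0.062 in males, and Rfc3 was -0.03 and Tk1 -0.082 with library size alone. The cause of these shifts was not tested. Low depth limits Orc1, with at most 3 counts per control.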
